A study of Mus musculus with 4 samples.

Results

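Kinesin motor genes were taken from the mRNA count table of a mouse embryonic stem cell study as every row whose symbol begins with Kif and a number, with Kifc, or with Klc and a number. This gave 41 of the 13815 rows, which were sorted by known role into 13 mitotic kinesins, 18 transport kinesins with their light chains, and 10 others. The mRNA came from V6.5 cells (WT), from Dgcr8-/- cells and from Dicer-/- cells, all labelled with the strain V6.5 and grown with 1000 units/mL of ESGRO, a leukaemia inhibitory factor product, in 15% serum. The labels describe neither how the alleles were made nor how many clones were used, and 1 mRNA library stands for each genotype. DGCR8 works with Drosha to cut primary miRNA transcripts and Dicer cuts the resulting hairpins, so both knockouts lack most mature miRNAs. Because n = 1 per genotype, no test between genotypes was possible, no p-value is given, and genotype, cell line and culture cannot be told apart. A small RNA library of WT cells was not used.

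Kinesins are ATPases that move along microtubules or shorten their ends. Mitotic kinesins build the spindle, move and align chromosomes and complete cytokinesis, and their transcripts are known to peak around the G2 and M phases of the cell cycle. Transport kinesins carry vesicles, mitochondria, protein complexes and mRNA, mostly towards the plus ends of microtubules, through light chains and adaptors that bind the cargo. Embryonic stem cells divide fast and are rich in mitotic transcripts, whereas several transport motors are best known from neurons.

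The libraries held 9931625 (WT), 11123498 (Dgcr8-/-) and 12309100 (Dicer-/-) counts, and kinesins made up 0.203%, 0.279% and 0.244% of them. Levels are in CPM, counts scaled to a common library total, and are not divided by transcript length, so levels of different genes were not ranked. Dgcr8 was at 52.7, 20.9 and 84.7 CPM in WT, the Dgcr8 knockout and the Dicer knockout, and Dicer1 was at 79.9, 128 and 20.1 CPM, each lowest in the library labelled as its knockout. All 9 stem cell markers on the list used (among them Pou5f1, Sox2 and Nanog) were above 1 CPM in each library, with summed levels of 10100, 7250 and 7870 CPM. In either knockout 0 of the 9 were at least 2-fold above WT, where 14.3% (Dgcr8-/-) and 16% (Dicer-/-) of all genes tested were higher. At least 2-fold below WT were Dppa5a and Lin28a in Dgcr8-/- cells and Lin28a and Zfp42 in Dicer-/- cells, 2 of 9 each, where 8.02% and 9.7% of all genes tested were lower. Every row of the table reached at least 10 counts in 1 library. Kif2b and Kif17, which were on the role lists, were not analysed here.

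The mitotic and transport classes were first compared by the sequence around their transcription starts. Cell cycle genes often carry a CHR element (cell cycle genes homology region), bound by MuvB-containing complexes such as DREAM, close to boxes bound by NF-Y. RefSeq promoter windows of GRCm38.p6, running from 250 bases before to 50 after a start, were found for 12 mitotic, 12 transport and 8 other kinesins. The CHR hexamer TTTGAA, read on both strands, was present in 11 of 12 mitotic windows (91.7%), in 1 of 14 transport windows (7.14%) and in 2 of 10 windows of the others, against 17.9% of all 32851 windows. The box CCAAT, also on both strands, was present in 8 of 12 mitotic and 6 of 14 transport windows, against 37.4% of all windows. Windows with both motifs numbered 8 of 12 for mitotic and 0 of 14 for transport kinesins, against 6.95% of all. Among the 12973 windows of genes with mRNA counts here, 11.6% held TTTGAA, 37.8% CCAAT and 4.81% both. The variant TTCGAA was found in 0 mitotic and 0 transport windows and in that of Kif24, a centriolar kinesin, against 1.56% of all. No 2 matches within a window shared a base. A match is a description of these letters and not a mapped binding site, and the RefSeq build differs from the mm9 build of the counts.

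The 110 bases from 80 before to 30 after the annotated start are printed for 5 mitotic kinesins, to show where the motifs lie, and for the 3 transport kinesins Kif1b, Kif13a and Kif1c, whose levels differed widely between libraries. Sequences run 5′ to 3′ on the gene's strand, and capitals mark matches to the motifs on either strand.
Kif11 (GRCm38.p6, chr19:37376302-37376411, plus strand): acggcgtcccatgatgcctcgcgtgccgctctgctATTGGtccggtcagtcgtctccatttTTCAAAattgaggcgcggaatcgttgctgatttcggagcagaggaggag
Kif22 (GRCm38.p6, chr7:127042391-127042500, minus strand): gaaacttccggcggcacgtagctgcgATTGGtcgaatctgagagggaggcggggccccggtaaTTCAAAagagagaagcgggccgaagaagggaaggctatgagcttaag
Kif23 (GRCm38.p6, chr9:61946770-61946879, minus strand): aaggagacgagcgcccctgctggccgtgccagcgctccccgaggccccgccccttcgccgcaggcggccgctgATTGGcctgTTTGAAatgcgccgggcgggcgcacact
Kif15 (GRCm38.p6, chr9:122951001-122951110, plus strand): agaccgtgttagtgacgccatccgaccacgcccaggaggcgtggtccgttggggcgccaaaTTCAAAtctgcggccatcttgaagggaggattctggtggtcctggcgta
Kifc1 (GRCm38.p6, chr17:33890604-33890713, minus strand): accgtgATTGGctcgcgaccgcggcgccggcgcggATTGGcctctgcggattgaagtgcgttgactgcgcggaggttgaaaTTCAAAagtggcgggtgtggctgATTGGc
Kif1b (GRCm38.p6, chr4:149307704-149307813, minus strand): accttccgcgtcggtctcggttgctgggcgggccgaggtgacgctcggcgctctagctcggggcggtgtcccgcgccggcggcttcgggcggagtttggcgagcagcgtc
Kif13a (GRCm38.p6, chr13:46929689-46929798, minus strand): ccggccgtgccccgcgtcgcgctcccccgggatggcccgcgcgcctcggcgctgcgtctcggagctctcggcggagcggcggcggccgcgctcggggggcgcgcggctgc
Kif1c (GRCm38.p6, chr11:70700468-70700577, plus strand): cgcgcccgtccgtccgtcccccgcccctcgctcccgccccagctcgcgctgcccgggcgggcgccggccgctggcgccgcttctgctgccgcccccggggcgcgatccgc
Counted from the start, with negative positions before it, the CCAAT match of Kif11 begins at -45 and its TTTGAA match at -19. In Kif22 the nearest matches begin at -54 and -17. Kif23 has both within 10 bases of the start. The window of Kifc1 holds 3 CCAAT matches and 1 TTTGAA match, and that of Kif15 has TTTGAA matches at -19 and -234 and no CCAAT match. The printed stretches of Kif1b, Kif13a and Kif1c hold none of the motifs, although Kif1b has CCAAT matches further from the start. Other transport kinesins, not printed, do have matches in the same range. Kif1a has the only TTTGAA match of the class, at -44, and CCAAT begins at -18 in Kif3a, -69 in Kif3b and -45 in Klc4. Kif18a was the only mitotic kinesin with a window that held none of the 3 motifs. Kif20a, Kif13b, Kif5a, Kif5b, Kifc2, Kifc3, Klc2, Kif19a and Kif21b had no window.

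**Figure D1:**
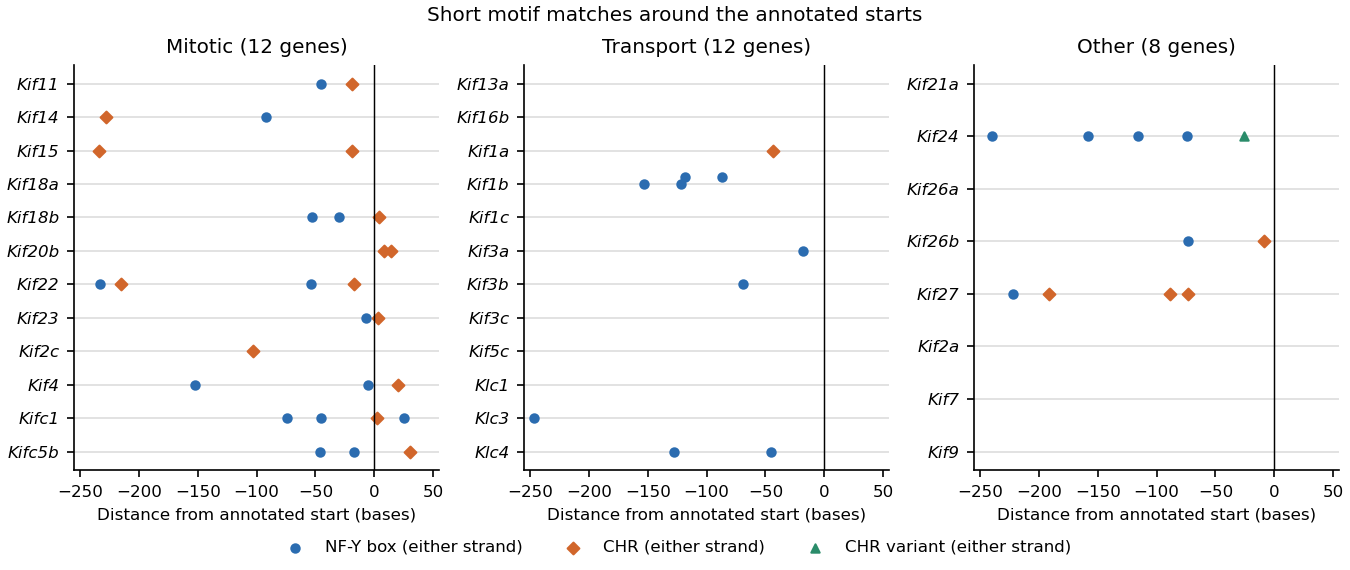
Positions of motif matches in the promoter windows of kinesin genes, in bases from the annotated transcription start (x axis), 1 line per gene; a gene with 2 windows has the second drawn slightly higher. Circles are CCAAT boxes (NF-Y box), diamonds TTTGAA (CHR) and triangles TTCGAA (CHR variant), on either strand; diamonds appear in 11 of 12 mitotic windows and in 1 of 14 transport windows.

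Libraries were compared by the ratio of their CPM values. The 95% interval in parentheses is exact, from the binomial split of a gene's counts between 2 libraries, and covers counting error only. A gene counted as higher or lower when its log2 ratio on the log2(CPM + 1) scale reached 2-fold, among genes that reached 1 CPM in either library of the pair. Of 13 mitotic kinesins, 0 were 2-fold higher and 0 were 2-fold lower in any of the 3 pairs, against 22.3% of 13223 genes at 2-fold in either direction for the Dgcr8 knockout over WT, 25.7% of 13403 for the Dicer knockout over WT, and 9.2% of 12986 for Dgcr8-/- over Dicer-/- cells. Their median log2 ratio was 0.24 in the Dgcr8 knockout over WT, beside 0.11 for all genes. For the Dicer knockout over WT it was 0.01 beside 0.10 for all genes, and it turned negative under median-ratio scaling (-0.10) and TMM scaling (-0.09).

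Among mitotic kinesins of the spindle midzone and cytokinesis, Kif20a, which works in the late steps of division, was at 175 CPM in WT, 301 in Dgcr8-/- cells and 279 in Dicer-/- cells. Both knockout libraries were high, 1.71-fold (1.62 to 1.82) and 1.59-fold (1.5 to 1.68) above WT. Kif23, the motor subunit of centralspindlin, was at 113, 193 and 143 CPM in the same order. Its level was 1.71-fold (1.59 to 1.84) above WT in Dgcr8-/- cells and 1.26-fold (1.17 to 1.36) above WT in Dicer-/- cells. Kif14, which acts at the midbody, was at 47.1, 74.6 and 42.6 CPM. Only its Dgcr8 knockout library was high, 1.58-fold (1.41 to 1.78) above WT and 1.75-fold (1.57 to 1.96) above the Dicer knockout. Kif20b, also a cytokinesis motor, had 84.5, 84.9 and 81.6 CPM, and its intervals held 1 in all 3 pairs.

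Among Kif11, Kif15, Kif22 and Kif4, which set up the spindle or bind chromosome arms, ratios over WT stayed at or below 1.32-fold. Kif11, the kinesin-5 that pushes spindle poles apart, was at 131, 156 and 148 CPM in WT, the Dgcr8 knockout and the Dicer knockout. Kif15, which can back up Kif11, was at 73.5, 64.6 and 55.8 CPM, with WT the highest. The Dicer knockout was 1.32-fold (1.19 to 1.46) below WT for Kif15 and 1.13-fold (1.05 to 1.21) above WT for Kif11, so this pair of motors lay on opposite sides of WT. The Kif11 ratio came nearer to WT with other scalings, at 1.04-fold with median-ratio and 1.05-fold with TMM scaling. Of the chromokinesins, which push on chromosome arms, Kif22 was at 152, 197 and 164 CPM, highest in Dgcr8-/- cells, and the X-linked gene Kif4 was at 80.2, 71.6 and 62.5 CPM, highest in WT.

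The kinesin-8 motor Kif18a, which dampens the movements of chromosomes at the metaphase plate, was at 28.6, 42.1 and 44.8 CPM. Its level was 1.47-fold (1.27 to 1.71) above WT in Dgcr8-/- and 1.57-fold (1.36 to 1.82) above WT in Dicer-/- cells. Its paralog Kif18b was at 74.2, 77.5 and 74.7 CPM, with intervals that held 1 in every pair. Kif2c, a kinetochore motor that shortens microtubules, was at 169, 156 and 158 CPM, slightly highest in WT. The minus-end motor genes Kifc1 and Kifc5b share synonyms, and since reads of such close copies can be assigned to either, each count is uncertain. Kifc1 was at 191, 231 and 197 CPM and Kifc5b at 138, 159 and 134 CPM. Kifc1 took 58.0% of the counts of this pair in WT (exact Clopper-Pearson 95% interval 56.3 to 59.7), 59.1% (57.6 to 60.6) in Dgcr8-/- cells and 59.6% (58.0 to 61.1) in Dicer-/- cells. The 3 intervals overlap.

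**Figure D2:**
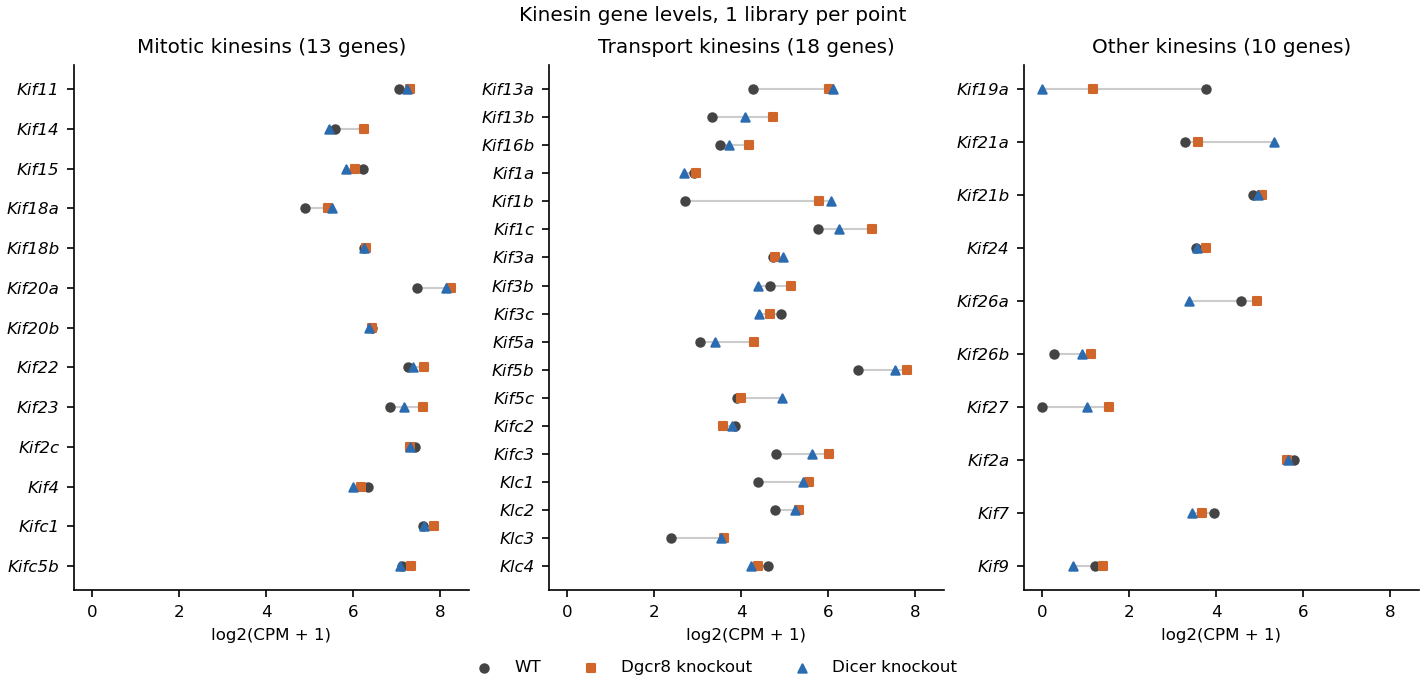
Level of each kinesin gene as log2(CPM + 1) in the WT, Dgcr8 knockout and Dicer knockout libraries (1 point per library), in alphabetical order within each class; grey lines join the lowest and highest library. Mitotic kinesins lie close together, while Kif1b (5.54, 54.6 and 65.4 CPM), Kif13a, Kif21a and Kif19a spread widely.

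Of the 18 transport kinesins, 9 were at least 2-fold above WT in Dgcr8-/- cells and 0 were 2-fold below, where 14.3% of all genes tested were 2-fold higher and 8.02% lower. Genes higher thus made up 64.1% of all calls, or 53.6% with median-ratio and 55.4% with TMM scaling. The median log2 ratio of the class was 0.90, or 0.67 without Kif1b, beside 0.11 for all genes. In the Dicer knockout, 5 of 18 were 2-fold above WT and 0 below, where 16% of all genes were higher and 9.7% lower, and the class median was 0.47 beside 0.10. With either other scaling 3 of 18 remained 2-fold above WT, where 14.2% (median-ratio) and 14.3% (TMM) of all genes were higher. Both comparisons use the same WT library, so they are not independent. With bulk RNA, more cells expressing a gene and more of its RNA per cell cannot be told apart.

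Of the kinesin-3 motors, Kif1b, which carries mitochondria and vesicle precursors, had 55 counts in WT, 607 in Dgcr8-/- cells and 805 in Dicer-/- cells, or 5.54, 54.6 and 65.4 CPM. WT stood far below both knockouts, by 9.85-fold (7.47 to 13.2) and 11.8-fold (8.98 to 15.8), the largest ratios among members higher than WT that had counts in both libraries. The table gives 1 RefSeq entry for Kif1b (NM_008441), so its splice forms cannot be separated. Kif13a, a motor of recycling endosomes, was at 18.3, 63.7 and 67.7 CPM. It was 3.48-fold (2.95 to 4.12) and 3.69-fold (3.14 to 4.36) above WT, and the knockouts differed from each other by less than counting error. Kif13b, known as GAKIN, was at 9.06, 25.5 and 16.1 CPM, 2.82-fold (2.22 to 3.61) above WT in Dgcr8-/- cells and 1.78-fold (1.38 to 2.30) in Dicer-/- cells.

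Kif1c, a ubiquitous kinesin-3, was at 53.7, 127 and 75.0 CPM. The Dgcr8 knockout stood highest, 2.37-fold (2.14 to 2.62) above WT and 1.69-fold (1.56 to 1.84) above the Dicer knockout. The early endosome motor Kif16b was at 10.4, 17.1 and 12.3 CPM. Kif1a, the carrier of synaptic vesicle precursors, was at 6.54, 6.74 and 5.44 CPM, and its intervals held 1 in each pair. As a share of the counts of these 6 kinesin-3 genes, Kif1b took 5.35% (4.06 to 6.91) in WT, 18.5% (17.2 to 19.9) in Dgcr8-/- cells and 27.0% (25.5 to 28.7) in Dicer-/- cells. Kif1c took 51.8% (48.7 to 54.9), 43.1% (41.4 to 44.8) and 31.0% (29.3 to 32.7). Shares of a family do not depend on the scaling between libraries, and for both genes the intervals of the 3 libraries did not overlap.

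Kinesin-1 is a tetramer of a heavy chain pair (Kif5a, Kif5b or Kif5c) and a light chain pair that binds cargo. Kif5b, the ubiquitous heavy chain, was at 102 CPM in WT, 224 in Dgcr8-/- cells and 183 in Dicer-/- cells. It was 2.19-fold (2.04 to 2.36) and 1.79-fold (1.66 to 1.93) above WT, though its log2 ratio in Dgcr8-/- cells was 0.99, just under 2-fold, with median-ratio scaling. The neuronal heavy chain Kif5a was at 7.25, 18.6 and 9.59 CPM, high in Dgcr8-/- cells at 2.57-fold (1.95 to 3.41) above WT. Kif5c, also best known from neurons, was at 14.0, 14.8 and 29.7 CPM, high in Dicer-/- cells at 2.12-fold (1.74 to 2.59) above WT. Its log2 ratio was 0.93 and below 2-fold with median-ratio and TMM scaling. Kif5a and Kif5c thus differed between the knockouts in opposite directions, with Kif5a 1.94-fold (1.54 to 2.45) higher and Kif5c 2.0-fold (1.66 to 2.42) lower in Dgcr8-/- than in Dicer-/- cells. The summed level of 9 neuronal markers was 251, 587 and 371 CPM in the same libraries, but single markers lay on both sides of WT, 4 above and 4 below among the 8 tested in each knockout. Some of these passed the floor only through the library where they were high, as given below. The part of neuronal markers in these differences was not tested.

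Of the light chains, Klc1 was at 19.7, 45.7 and 42.1 CPM, 2.31-fold (1.96 to 2.74) above WT in Dgcr8-/- cells and 2.13-fold (1.81 to 2.53) in Dicer-/- cells, where the log2 ratio was 0.95 with both other scalings. Klc3 had 42, 125 and 131 counts and was 2.66-fold (1.86 to 3.86) and 2.52-fold (1.77 to 3.65) above WT. Klc2 was at 26.4, 39.0 and 36.9 CPM, and Klc4 at 23.5, 19.8 and 17.5 CPM. Klc1, Klc2 and Klc3 were thus lowest in WT, and Klc4 was highest there. Klc4 was 1.19-fold (0.98 to 1.43) below WT in Dgcr8-/- cells, an interval that held 1, and 1.34-fold (1.11 to 1.62) below in Dicer-/- cells. Its counts were 233, 220 and 216, while those of the 4 light chains together were 733, 1287 and 1319. Klc4 took 31.8% of light chain counts in WT (28.4 to 35.3), 17.1% (15.1 to 19.3) in Dgcr8-/- cells and 16.4% (14.4 to 18.5) in Dicer-/- cells. Klc1 took 26.7% (23.6 to 30.1), 39.5% (36.8 to 42.2) and 39.3% (36.6 to 42.0), and for both genes the intervals of the knockouts overlapped each other and not that of WT. These shares are of counts and were not corrected for transcript length.

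**Figure D3:**
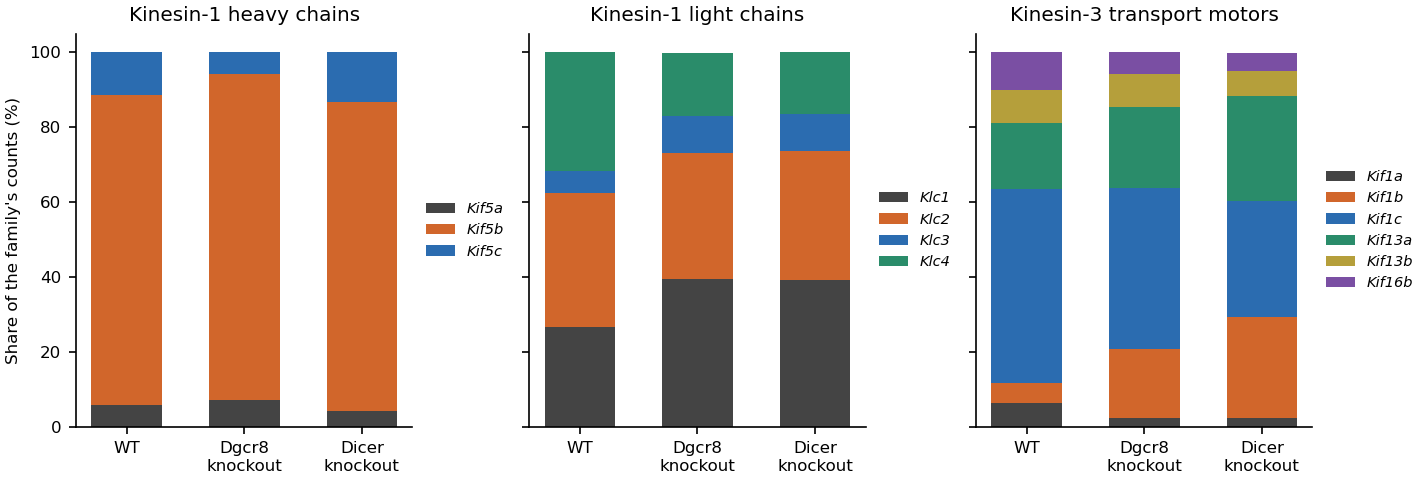
Share of each family's counts (y axis, percent) taken by each gene in the WT, Dgcr8 knockout and Dicer knockout libraries, for kinesin-1 heavy chains, kinesin-1 light chains and 6 kinesin-3 transport motors. Klc4 takes 31.8% of light chain counts in WT and 17.1% and 16.4% in the knockout libraries, and Kif1b takes 5.35%, 18.5% and 27.0% of kinesin-3 counts.

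Kinesin-2 drives intraflagellar transport in cilia. Kif3a was at 25.6, 26.3 and 29.9 CPM in WT, the Dgcr8 knockout and the Dicer knockout. Kif3b, its usual partner, was at 24.3, 34.4 and 20.0 CPM, and Kif3c at 29.0, 24.4 and 20.1 CPM. Kif3b was highest in Dgcr8-/- cells and Kif3c in WT, and none of the 3 reached 2-fold in any pair. Their adaptor gene Kifap3 was at 45.0, 106 and 80.2 CPM, 2.35-fold (2.10 to 2.63) and 1.78-fold (1.59 to 2.0) above WT. The minus-end transport motor Kifc3 was at 26.8, 64.1 and 48.3 CPM, 2.39-fold (2.08 to 2.77) and 1.80-fold (1.56 to 2.09) above WT. Kifc2, a neuronal C-terminal motor, was at 13.5, 11.1 and 12.9 CPM, and its intervals held 1.

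The remaining 10 kinesins lay on both sides of WT. Kif19a, which shortens the tips of motile cilia, had 126 counts in WT, 14 in Dgcr8-/- cells and 0 (an empty cell) in Dicer-/- cells. WT was the highest of the 3. The Dgcr8 knockout was 10.1-fold (5.79 to 19.0) below WT, and the Dicer knockout at least 52.1-fold below WT against a floor of 3 counts in its library. The table does not say whether an empty cell is 0 or a missing value, and this bound holds only if it is 0. Kif21a, a kinesin-4 that restrains microtubule growth, had 86, 122 and 483 counts. Only the Dicer knockout was high, 4.53-fold (3.60 to 5.77) above WT and 3.58-fold (2.93 to 4.40) above the Dgcr8 knockout. Kif26a, an atypical kinesin without ATPase activity, had 226, 331 and 116 counts. The Dicer knockout was low, 2.41-fold (1.92 to 3.05) below WT and 3.16-fold (2.55 to 3.94) below the Dgcr8 knockout.

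Kif27, a relative of Kif7, had 0 (an empty cell), 21 and 13 counts, at least 6.25-fold and 3.50-fold above WT against a floor of 3 counts, again only if the empty cell is 0. It entered both comparisons with WT only through the knockout library, as did Kif26b, which had 2, 13 and 11 counts, in the Dgcr8 comparison, so neither could come out lower there. Kif7 itself, a regulator of Hedgehog signalling at the ciliary tip, was at 14.4, 11.7 and 9.83 CPM, highest in WT. Kif2a, which shortens microtubules in spindles and neurons, was at 54.0, 48.5 and 49.0 CPM. Kif21b was at 27.9, 32 and 30.2 CPM, Kif24 at 10.6, 12.6 and 10.7 CPM, and the ciliary gene Kif9 had 13, 18 and 8 counts. For Kif2a, Kif21b and Kif24 the intervals held 1 in all pairs. Of the 10, 1 was 2-fold higher and 1 lower in the Dgcr8 knockout over WT, and 2 of the 9 tested were higher and 2 lower in the Dicer knockout over WT, where the shares of all genes were 14.3% and 8.02%, and 16% and 9.7%. These counts include Kif27 in both comparisons and Kif19a, whose Dicer-/- cell is empty. In the Dicer comparison Kif19a and Kif9 passed the floor of 1 CPM only through WT, so neither could come out higher there. Kif9 was not called.

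**Figure D4:**
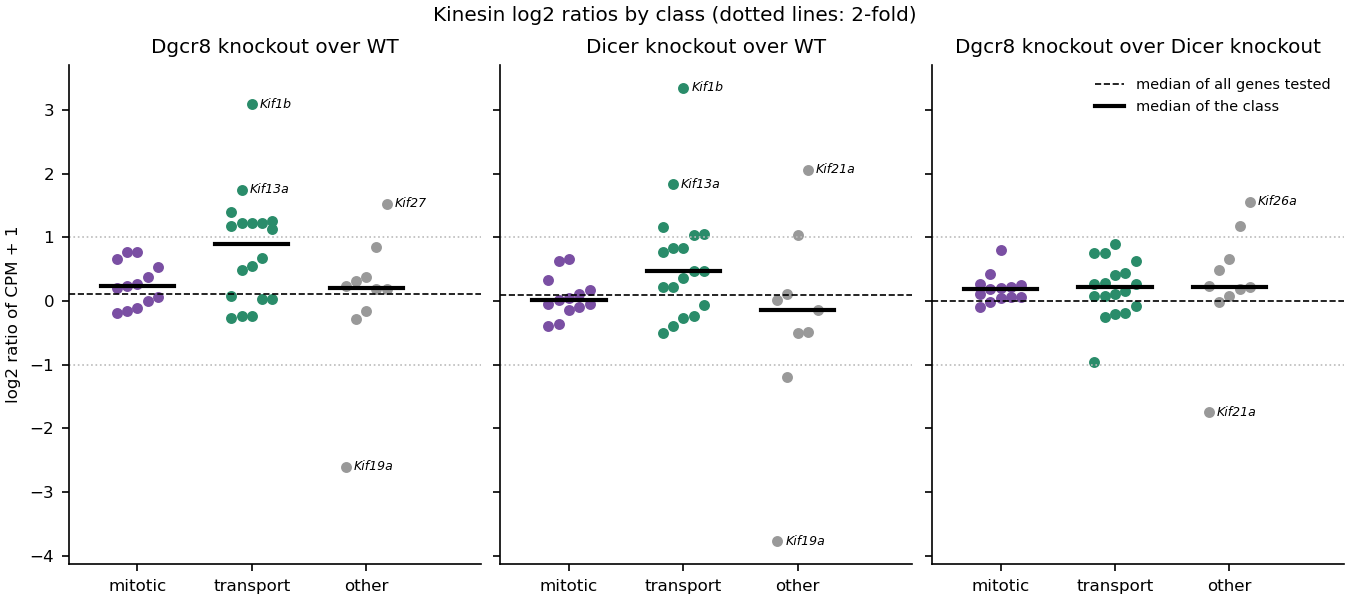
Log2 ratio of CPM + 1 (y axis) of each kinesin tested, by class, for the Dgcr8 knockout over WT, the Dicer knockout over WT and Dgcr8-/- over Dicer-/- cells; thick lines are class medians, dashed lines the median of all genes tested and dotted lines 2-fold. Transport medians are 0.90 and 0.47 over WT, mitotic medians 0.24 and 0.01, and all mitotic kinesins lie inside the dotted lines.

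Between the knockouts, 2 of 41 kinesins, Kif26a and Kif19a, reached 2-fold higher levels in Dgcr8-/- cells, where 4.15% of all genes tested were higher. Kif19a, with 14 counts against an empty cell, passed the floor of 1 CPM only through Dgcr8-/- cells and so could not come out lower. It was not called with a pseudocount of 5 or a floor of 5 CPM. Kif21a was the 1 kinesin at least 2-fold lower, where 5.05% of all genes were lower. This comparison does not use WT. The class medians were 0.19 for mitotic, 0.21 for transport and 0.22 for other kinesins, beside 0.0019 for all genes. Among the others, Kif26b (1.17 and 0.89 CPM) and Kif9 (1.62 and 0.65 CPM) also passed the floor only through Dgcr8-/- cells. Like Kif19a, they could only add ratios above 0 to that median, which was 0.15 with a floor of 5 CPM. Kif3b, Kif14 and Kif1c stood higher in Dgcr8-/- cells by 1.72-fold (1.46 to 2.03), 1.75-fold (1.57 to 1.96) and 1.69-fold (1.56 to 1.84). These are ratios of 1 library to another, and the spread between cultures is not known.

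Summed over genes, mitotic kinesins were at 1459 CPM in WT, 1808 in Dgcr8-/- cells and 1585 in Dicer-/- cells, and transport kinesins at 420 (419.9), 828 and 702 CPM. The other kinesins summed to 152, 151 and 151 CPM. Mitotic genes therefore took 77.65% of mitotic and transport counts in WT (77.05 to 78.25), 68.6% (68.1 to 69.1) in Dgcr8-/- cells and 69.3% (68.8 to 69.8) in Dicer-/- cells. The share was highest in WT, with intervals that did not overlap those of the knockouts. It was 80.2%, 71.4% and 71.6% without Kif20a and Kif5b, the members of each class with most counts over the 3 libraries, so WT stayed highest without them. The classes were not tested against each other, since genes are not replicates.

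**Figure D5:**
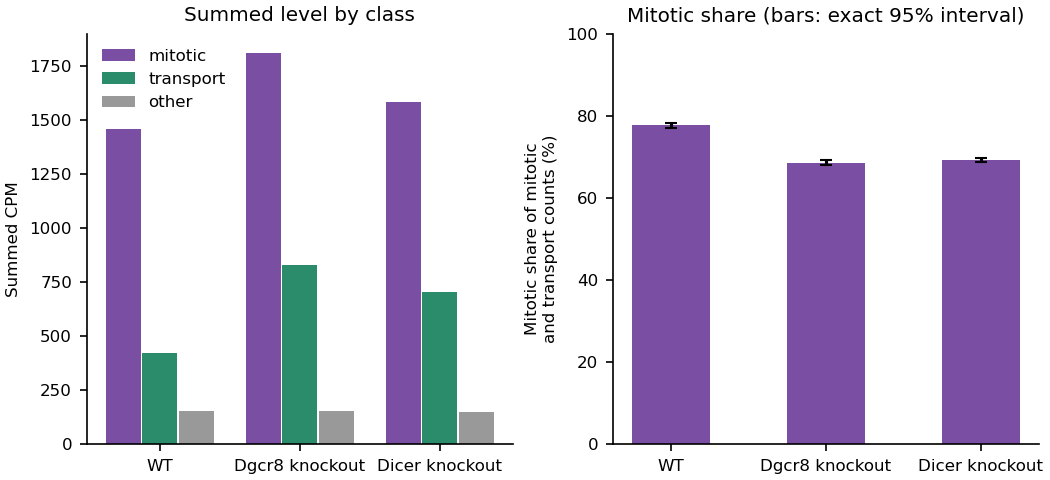
Left, summed CPM (y axis) of mitotic, transport and other kinesins in each library; right, mitotic share of mitotic and transport counts (percent) with exact Clopper-Pearson 95% intervals for counting error. The share is 77.65% in WT and 68.6% and 69.3% in the knockouts, while the transport sum goes from 420 CPM (419.9) in WT to 828 and 702 CPM.

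Other genes of the spindle, the checkpoint and cytokinesis were set beside the mitotic kinesins. They include Cenpe, itself a kinesin motor gene, whose symbol the rule does not take. For this and the lists that follow, the shares of all genes at 2-fold were 14.3% higher and 8.02% lower in Dgcr8-/- cells over WT (median log2 ratio 0.11), and 16% higher and 9.7% lower in Dicer-/- cells over WT (median 0.10). Of 25 spindle, checkpoint and cytokinesis partners, 2 reached 2-fold higher and 0 lower levels in the Dgcr8 knockout over WT (median log2 ratio 0.16), and 1 was higher and 2 lower in the Dicer knockout over WT (median -0.05). The partners called made up 8% of the list in Dgcr8-/- cells and 12% in Dicer-/- cells, below the 22.3% and 25.7% of all genes called in either direction. Numa1, which gathers microtubules at the poles, was at 86.7, 196 and 207 CPM, high in both knockouts. Cit, which encodes citron kinase, a partner of Kif14 in cytokinesis, had 135, 329 and 282 counts. Birc5, which encodes survivin, was at 226, 113 and 93.6 CPM and the checkpoint kinase gene Ttk at 84.8, 58.0 and 40.3 CPM, both highest in WT. Of the promoter windows of these partners, 17 of 24 held TTTGAA (70.8%).

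For transport, 5 of 18 cargo adaptors were 2-fold or more above WT in Dgcr8-/- cells and 0 below (median 0.27), and 2 were higher and 1 lower in Dicer-/- cells (median 0.06). Those called were 27.8% of the list in Dgcr8-/- cells, and 16.7% in Dicer-/- cells, beside 22.3% and 25.7% of all genes. Trak1, which links kinesin-1 to mitochondria, had 247, 802 and 911 counts, 2.90-fold (2.51 to 3.36) and 2.98-fold (2.58 to 3.44) above WT. Kidins220, which binds the motor machinery in neurons, had 176, 522 and 557 counts, and Ppfia4, a liprin, 270, 187 and 116. Adaptor windows held TTTGAA in 2 of 21 (9.52%).

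Cytoplasmic dynein moves towards minus ends and shares cargo with kinesins. Of 23 dynein and dynactin genes, 5 were 2-fold higher than WT in Dgcr8-/- cells (median 0.18) and 3 in Dicer-/- cells (median 0.48), with 0 lower in either. These were 21.7% and 13.0% of the list, beside 14.3% and 16% of all genes higher. The dynactin subunit gene Dctn4 had 230, 1043 and 1184 counts, 4.05-fold (3.51 to 4.69) and 4.15-fold (3.60 to 4.80) above WT. The light intermediate chain gene Dync1li2 had 458, 1627 and 1083 counts, highest in Dgcr8-/- cells. The adaptor gene Bicd2 had 155, 426 and 425 counts, while its paralog Bicd1 had 14, 16 and 58, high in Dicer-/- cells.

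Of 19 intraflagellar transport genes, which are carried by kinesin-2, 1 was 2-fold higher and 1 lower in the Dgcr8 knockout over WT (median 0.20), and 0 were higher and 2 lower in Dicer-/- cells (median 0.09). Ift20 had 439, 82 and 129 counts and was lowest in Dgcr8-/- cells, 6.0-fold (4.73 to 7.69) below WT. Ift52 had 387, 950 and 627 counts, Ift172 had 199, 379 and 373, and Ift27 had 230, 162 and 113. Promoter windows of intraflagellar transport genes held CCAAT in 11 of 15 (73.3%), beside 66.7% of mitotic kinesin windows, and TTTGAA in 0. Of 15 tubulin genes, 0 were 2-fold higher in the Dgcr8 knockout over WT and 1 in Dicer-/- cells (medians 0.20 and 0.22), with 0 lower in either. That one was Tubb2a, at 237, 406 and 518 CPM, and Tubb4b was at 547, 1089 and 1037 CPM.

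Markers of other cell types were measured too. Of 12 neuronal markers, 9 were analysed here and 0 of these were at 0 in any library. Their summed level was 251 CPM in WT, 587 in Dgcr8-/- cells and 371 in Dicer-/- cells. Nefm had 2, 81 and 103 counts and Nefl 94, 417 and 839, whereas Gap43 had 297, 15 and 2 and Elavl4 had 36, 2 and 6. Stmn2, named here after its values were seen, held most of the sum, with 1651, 5659 and 3074 counts. The list was thus mixed, with 3 of 8 tested 2-fold higher and 2 lower over WT in each knockout. Nefm passed the floor of 1 CPM only through the knockouts, so it could not come out lower. Elavl4 in both comparisons, and Gap43 in the Dicer comparison, passed it only through WT and could not come out higher. Of 9 feeder fibroblast markers, 4 were analysed here and 0 of these were at 0, with summed levels of 108, 565 and 340 CPM, and in each knockout 1 was 2-fold higher and 3 were lower than WT. Most of that sum was Vim, at 766, 6248 and 4157 counts, while Col1a1 had 97, 6 and 5 and Thy1 had 175, 23 and 16. Only 2 of the 4 feeder markers reached 1 CPM in each knockout. The others, among them Col1a1, passed the floor only through WT and so could not come out higher. The part of other cell types in the levels of Kif5a, Kif5c, Kif21a and the transport motors was not tested.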

How the data were processed

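Poly(A) RNA was made into stranded libraries from Trizol-extracted RNA, per the labels' protocols. Reads were mapped to mm9 with Bowtie (version not stated), per the submitters' processing notes. The sources used here name no counting tool, annotation or strand setting (not given). The authors deposited raw counts per RefSeq entry, 1 column per library, matched to samples by column name. Empty cells (252, 221 and 138) were read as 0, though the table does not say whether they are 0 or missing. Counts from 2 to 9 were even in 69.6% to 74.8% of cases over the whole table, while 23, 23 and 22 of the 41 kinesin counts were even; the cause was not tested, and intervals were also computed with counts halved.

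Counts were scaled to CPM by the table total. Log2 ratios used a pseudocount of 1 CPM, which understates changes of low genes, with a floor of 1 CPM in at least 1 library of a pair and a 2-fold threshold. Intervals are exact conditional binomial for ratios and Clopper-Pearson for shares, and cover counting error only; PCR reads are not independent molecules. A fold against 0 used a floor of 3 counts. Scripts were tested on simulated data. Alternatives were edgeR 4.0.16 TMM and DESeq2 1.42.0 size factors, pseudocounts of 0.5 and 5, no floor or 5 CPM, and other class memberships. Python 3.11.15 and scipy 1.17.1 were used. Promoter windows came from RefSeq (GRCm38.p6) and were matched by symbol. The rule names every kinesin row at 1 CPM or more in 1 library, and up to 4 genes per related list, those with the largest absolute log2 ratio against WT in either knockout; Kif9 and Kif26b, near the floor, are named with them. Cenpe is named besides, as a motor gene on the list of spindle partners. Members, role classes and lists were chosen with earlier results of these data known. Planned comparisons per coding length were not made, as no transcript lengths were used here.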

Additional observations from a re-analysis of the deposited data

How the results depend on the processing

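All intervals cover counting error only, and with 1 library per genotype nothing here measures the spread between cultures. No paired analysis was possible because each genotype has 1 library and no test was run. Median-ratio scaling moved the median log2 ratio of all genes by -0.13 in the Dgcr8 knockout over WT and by -0.11 in the Dicer knockout over WT, and TMM by -0.11 and -0.10. Genes higher made up 64.1% of all calls in the Dgcr8 knockout over WT, 53.6% under median-ratio scaling and 55.4% under TMM. The class medians then became 0.11 (0.105) and 0.13 for mitotic, 0.76 and 0.79 for transport and 0.10 (median-ratio) for other kinesins in Dgcr8-/- cells, and -0.10 and -0.0942, 0.36 and 0.37, and -0.25 and -0.24 in Dicer-/- cells. With a pseudocount of 5 the transport median in Dgcr8-/- cells was 0.67, the same as without Kif1b (0.67), a setting chosen after seeing the data. That pseudocount left 3 kinesins higher and 1 lower in the Dicer knockout over WT, beside 1232 and 591 of 13403 genes tested. In Dgcr8-/- over Dicer-/- cells it left 1 higher, beside 182 of 12986 genes. A floor of 5 CPM also gave 1 higher there, beside 387 of 10783 genes. With the pseudocount of 5, Kif5a, Klc3 and Kif27 no longer reached 2-fold in Dgcr8-/- cells over WT. Neither did Kif5c, Klc1, Klc3, Kif26a and Kif27 in Dicer-/- cells over WT, nor Kif19a between the knockouts. A 1.5-fold threshold gave 12 of 40 kinesins higher in the Dicer knockout over WT, where 3759 of 13403 genes tested were higher. Between the knockouts it gave 8 of 41 higher and 2 lower, beside 1642 and 1618 of 12986 genes. Kif5b (Dgcr8 knockout over WT, median-ratio scaling), and Kif5c and Klc1 (Dicer knockout over WT, both scalings), no longer reached 2-fold. The mitotic share in WT, the Dgcr8 knockout and the Dicer knockout was 78.3%, 69.2% and 69.9% with Kif2a as mitotic, 80.8%, 71.7% and 72.7% without light chains, 75.9%, 66.6% and 67.4% without Kifc5b, and 80.2%, 71.4% and 71.6% without Kif20a and Kif5b. Directions of Kif18b, Kif20b, Kifc1, Kif1a, Kif3a, Kif5c and Kif24 flipped under both scalings in at least 1 pair with WT, all with intervals that held 1. With counts halved, 60 of 72 intervals that left out 1 still did. The share per coding length was not run. TTTGAA matches that start within 100 bases, a window chosen after seeing the data, were in 9 of 12 mitotic windows, 1 of 14 transport windows and 8.01% of all. Among windows of genes with mRNA counts here the share was 4.51%.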
